A study of Canis lupus familiaris with 77 samples.

Results

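The pancreas was compared with every other tissue of a miRNA atlas of the dog. The pancreas libraries are the 5 whose tissue label is Pancreas, of 76 libraries in all, and the 71 libraries of the 15 other tissues formed the reference. Small RNA was sequenced (miR-seq), with the question of which miRNAs mark an organ well enough to report its injury. All libraries came from untreated male Marshall beagle dogs of 10 months, a laboratory breed, and no group carried an engineered allele or received an agent. The other tissues were the gut (duodenum, jejunum, ileum and colon), liver, kidney, lung, heart, skeletal muscle, brain, sciatic nerve, testis, thymus, bone marrow and plasma, with 5 libraries each except colon with 4 and sciatic nerve with 2. Per the study's methods the vessels of the dogs were flushed with saline before the organs were taken, and in one account sciatic nerve RNA of the animals was pooled. The labels do not say from which dog a library came, so libraries of one tissue or dog were treated as independent, which they may not be. A rank-sum p-value therefore describes the order of the libraries. An edgeR p-value is set against the spread between libraries within tissues.

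MicroRNAs are short RNAs that bind mRNAs through a seed near their 5′ end and lower their translation or stability. They are cut from hairpins, whose left and right stems give the 5p and the 3p arm, and usually one arm dominates. The pancreas is mostly exocrine acini, which secrete digestive enzymes into ducts, with scattered islets of endocrine cells that release insulin and glucagon. In mammals miR-216a, miR-216b and miR-217 are known as acinar miRNAs, miR-375 as the leading miRNA of islet cells, and miR-148a as abundant in pancreas and liver. The miR-200 family and miR-141 mark epithelia in general, and they hold the epithelial state by repressing ZEB1 and ZEB2.

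The pancreas libraries held 2236304, 1587085, 2425345, 1457232 and 675171 reads on miRNAs (Pancreas 1 to 5, the order of all values below), and the other 71 held 157871 to 7896424 with a median of 1293871. Values are the reads of a miRNA per 1000000 miRNA reads of the library (RPM), and a count of 0 allowed up to 3 reads, or 1.24 to 4.44 RPM in a pancreas library. Of 650 miRNAs detected in the atlas, 346 to 424 had a read in a pancreas library, and 266 were highly expressed, with a median above 100 RPM in at least 1 tissue. All 7 acinar entries and miR-375 had reads in all 5 libraries, while miR-184 of the endocrine list had none. The summed level of 7 acinar entries was 248608 to 462165 RPM against at most 80316 in any other library, and that of the endocrine list was 114537 to 167464 against at most 10035. Each sum was mostly 1 miRNA. In Pancreas 1 miR-148a gave 445204 of 462165 RPM and miR-375 114179 of 114537. All 7 acinar entries were higher in pancreas than in the mean of the other tissues by edgeR, under every scaling tried, where 21.2% of all miRNAs were higher.

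Pancreas 4 stood apart from the other pancreas libraries. A chi-square per degree of freedom, which counting error alone would hold near 1, was 230 to 808 between its read counts and theirs, against 50.0 to 164 among the other 4. Of 119 miRNAs with a pancreas median above 100 RPM it had the highest value in 77, more than 1.5 times the mean of the other 4 in 38, and well below it in 3. Its miR-148a share was lower than in the other 4, and its smooth muscle and fibroblast markers were higher. Counts are therefore given with and without it, and whether its tissue composition differed was not tested.

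A pair of miRNAs took most pancreas reads. miR-148a, a regulator of DNA methyltransferase and cholesterol genes, took, with 95% Wilson intervals, 44.5% (44.46 to 44.59%), 43.1% (43.04 to 43.20%), 40.6% (40.57 to 40.70%), 22.7% (22.62 to 22.76%) and 35.5% (35.41 to 35.64%) of the reads. miR-375, a repressor of insulin secretion, took 11.4% (11.38 to 11.46%), 12.9% (12.89 to 12.99%), 14.8% (14.78 to 14.87%), 16.2% (16.18 to 16.30%) and 16.7% (16.63 to 16.80%). Together they took 55.9%, 56.1%, 55.5%, 38.9% and 52.2% of the reads, and the 10 most abundant miRNAs took 70.4% to 78.2%. The intervals cover counting error only and were far narrower than the spread between libraries.

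The other 8 of the 10 most abundant pancreas miRNAs were miR-22, miR-26a, let-7f, miR-30a, miR-192, miR-10b, miR-181a and miR-27b. miR-22, known from muscle and many epithelia, had 31189, 41689.6, 37082, 58978 and 56030.3 RPM. miR-26a, a miRNA linked to growth arrest and differentiation, had 34315, 34664, 39823, 52467 and 50709 RPM. let-7f, a member of the differentiation family let-7, had 41827, 36162, 34949.7, 42797 and 35917 RPM. It was higher than the mean of the other tissues by 1.28 ± 0.16 on the log2 scale, where ± is a standard error for every edgeR difference (edgeR quasi-likelihood test, Benjamini-Hochberg adjusted p = 2.8e-10). miR-22 was highest in Pancreas 4 and Pancreas 5, while let-7f varied little. miR-30a, of the epithelial miR-30 family, had 27683, 24222, 27557, 29205 and 26815 RPM. miR-192, an epithelial miRNA of gut, liver and kidney, had 31891, 24987, 26491, 24407 and 27085 RPM, far below the 224693 to 398717 of jejunum. miR-10b, which lies in a HOX gene cluster, had 21006, 19993, 18149, 42083 and 17563 RPM, and Pancreas 4 lay well above the other 4. RPM of different miRNAs also depend on how well each sequence is captured in a library, so such orders are orders of reads.

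All reads compete for a fixed total, so the share of miR-148a and miR-375 bears on every other value. Over the 266 highly expressed miRNAs the mean log2(RPM + 1) of pancreas minus the mean of the other tissues had a median of -0.45. The median was -0.34 after TMM scaling, -0.12 with DESeq2 size factors and 0.55 when the total left out 7 pancreas miRNAs. A small difference below has to be read against these shifts, and the direction of a family is given with the scalings in which its count changed.

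The tissue comparison took the fold and test limits of the study, without its further condition on the number of tissues in which an HTE miRNA is detected, and the set of highly expressed miRNAs was recomputed from the table. A miRNA was tissue enriched (TE) when its mean RPM in pancreas exceeded that of the other 71 libraries over 5-fold and an exact rank-sum test gave an adjusted p under 0.05, and highly tissue enriched (HTE) when the pancreas median was more than 5 times the highest other library. Pancreas had 17 TE miRNAs of 266 highly expressed ones (6.39%), and 7 of them were HTE (2.63%). By the test alone, with no limit on the fold, 34 (12.8%) were higher. The pancreas median was the highest of the 16 tissues for 16 of the 17, and edgeR called all 17 higher than the mean of the other 15 tissues. In 11 of the 266 (4.14%) all 5 pancreas libraries lay above all 71 others, with p-values of 5.41e-08 or 1.08e-07, the smallest this design can give with and without tied values, and adjusted p-values of 4.4e-06 to 5.41e-06 (exact rank-sum test, two-sided, Benjamini-Hochberg over 650 miRNAs). Without Pancreas 4 the counts were 16 TE, with miR-200c lost, and 7 HTE. Fewer cells of a type and less RNA per cell cannot be told apart in such bulk samples, here and in every comparison below.

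The acinar miRNAs separated pancreas from every other library. The RefSeq gene table of the dog assembly UU_Cfam_GSD_1.0 lists MIR217, MIR216A and MIR216B as direct neighbours on chromosome 10 with 0 genes between them, and all 5 entries of this cluster were HTE. miR-217, an acinar miRNA, had 3006, 3799, 3525, 6274 and 3543 RPM. The highest other library was Liver 4 with 12.02 RPM. miR-216b, another product of the cluster, had 4429.6, 5942, 4420.4, 6593 and 5507 RPM against at most 20.03 in Liver 4. miR-216a, the remaining hairpin of the cluster, had 4535, 3927, 4006, 4242 and 4143 RPM against at most 51.1 in Plasma 4. The levels of pancreas and of the other libraries did not overlap for any of the 3.

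The minor arms of 2 of these hairpins showed the same separation. miR-217-3p had 318, 351, 349, 352 and 345 RPM and miR-216a-3p 579, 408, 335, 579 and 336 RPM, while no other library passed 4.54 and 7.21 RPM. As ratios of means, pancreas exceeded the other libraries 3216-fold for miR-217, 1899-fold for miR-216b, 1276-fold for miR-216a, 1252-fold for miR-217-3p and 752-fold for miR-216a-3p. The other libraries averaged only 0.274 to 3.27 RPM, about the level of a few reads, so these ratios are known only roughly. The pancreas median over the highest other library, which does not rest on that average, was 295 for miR-217, 275 for miR-216b and 81.1 for miR-216a. Within pancreas miR-216a varied least of these 3, with a mean of 4171 ± 237 RPM (SD, n = 5), and miR-217 most, with 4029.6 ± 1287.

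Traces of the acinar cluster were read in other tissues. Summed over its 5 entries pancreas held 12636 to 18041 RPM with a median of 13874, and the other 71 libraries held 0 to 56.8 RPM with a median of 3.65. No read of the cluster was found in 12 of the 71, among them all 5 bone marrow libraries, where a count of 0 allows up to 12.6 to 18.5 RPM. Jejunum had 9.42 to 30.5 RPM and plasma a median of 19.5 RPM, and the jejunum median of 21.04 RPM was the highest outside pancreas. Plasma 4 was the highest single library at 56.8 RPM, from 89 reads of which 80 were miR-216a, and Liver 4 followed in RPM, with 49.4 RPM from 37 reads. The makeup of the cluster differed, since miR-216a gave 89.9% of its reads in Plasma 4, 32.4% in Liver 4 and 23.5% to 35.2% in the pancreas libraries. The source of these reads was not tested.

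**Figure D1:**
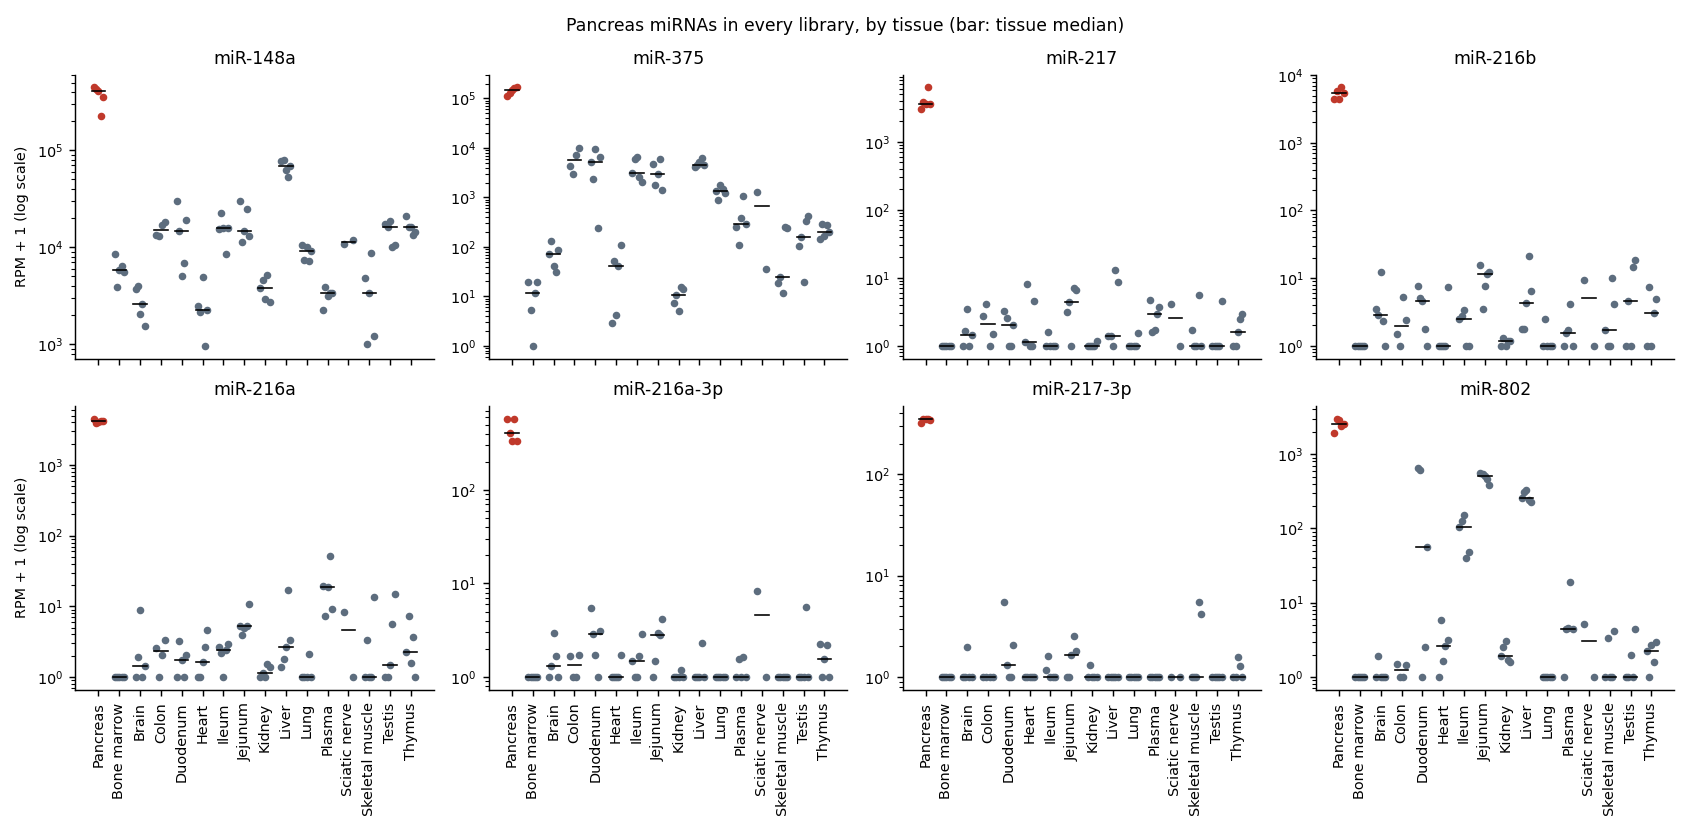
RPM + 1 on a log axis of 8 miRNAs in each library (points) by tissue, with the tissue median as a bar. The 5 pancreas points of miR-217, miR-216a and miR-216b lie at 3006 RPM or above while no other library passes 51.1, and for miR-375 the highest other library stands at 9922 against a lowest pancreas value of 114179.

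The endocrine markers were led by miR-375. It had 114179, 129419.7, 148274, 162447 and 167150.2 RPM, a mean of 144294 ± 22338 (SD, n = 5). No other library reached 114179, and the nearest was Colon 5 with 9922 RPM in colon, the tissue with the next highest median of 5712. The ratio of means was 83.2, and the fitted difference from the mean of the other tissues was 8.71 ± 0.42 on the log2 scale (edgeR quasi-likelihood test, Benjamini-Hochberg adjusted p = 1.97e-29). miR-375 is also known from endocrine cells of the gut.

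Other endocrine entries were far lower. miR-153, which lies within genes of the secretory granule proteins PTPRN and PTPRN2, had 313, 217, 264, 204 and 238 RPM and was TE at 6.50-fold (exact rank-sum test, Benjamini-Hochberg adjusted p = 0.00207). It was not the highest in pancreas, since Brain 1 had 615 RPM and the brain median was 352. miR-7, an islet and neuroendocrine miRNA, had 30.9, 33.4, 40.4, 100.2 and 50.4 RPM, and miR-184, also known from islets, had no read in any pancreas library, which allows up to 1.24 to 4.44 RPM. Of 7 endocrine entries that could be tested 5 were higher and 0 lower than the mean of the other tissues by edgeR, against 102 (21.2%) higher and 92 (19.2%) lower of 480 miRNAs tested. The count of the endocrine list was the same with library size scaling, with DESeq2 size factors and without Pancreas 4.

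miR-148a was the most abundant pancreas miRNA and also passed the strictest criterion, narrowly. It had 445204, 431198, 406344, 226890.4 and 355270.0 RPM, a mean of 372981 ± 88564 (SD, n = 5), and Pancreas 4 was the lowest of the 5. The highest other library was Liver 2 with 79159 RPM, and the liver median of 68052 was the next tissue, 5.97 times below pancreas. The ratio of means was 26.9 and the fitted difference was 5.67 ± 0.16 (edgeR quasi-likelihood test, Benjamini-Hochberg adjusted p = 6.64e-43). The pancreas median was 5.13 times the highest other library. That ratio fell under the limit of 5 without Pancreas 1 or Pancreas 2 (4.81), without Pancreas 3 (4.97) and after TMM scaling (4.65), and was 10.9 when the total left out 7 pancreas miRNAs.

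The hairpins of the miR-148 family differed. The opposite arm miR-148a-5p had 4092, 3786, 2499, 3677 and 2952 RPM, above every other library, of which Liver 4 was the highest with 1385, and it was TE at 12.5-fold. miR-148b, from another gene, had 151, 146, 139.8, 141 and 139 RPM and was lower than the mean of the other tissues, with a difference of -0.88 ± 0.29 (edgeR quasi-likelihood test, Benjamini-Hochberg adjusted p = 0.0118). miR-152, the remaining member, had 6.71, 5.67, 7.01, 15.1 and 7.41 RPM against a mean of 85.2 elsewhere, and its difference was -2.58 ± 0.46 (Benjamini-Hochberg adjusted p = 3.46e-06 by edgeR). Of the 6 entries of the family, arms included, 3 were higher and 3 lower, against 21.2% and 19.2% of all miRNAs, and with DESeq2 size factors, or without plasma and bone marrow, 3 were higher and 1 lower. The RefSeq table places MIR148A on chromosome 14 and MIR148B on chromosome 27.

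miR-802 was TE but not HTE. It had 1898, 3009, 2889, 2394 and 2512 RPM. The highest other library was Duodenum 1 with 648 RPM, and jejunum had the next median, 507. Pancreas exceeded jejunum by 2.55 ± 0.73 (edgeR quasi-likelihood test, Benjamini-Hochberg adjusted p = 0.00354), duodenum by 3.56 ± 0.76 (0.00014 by the same test) and liver by 3.33 ± 0.76 (0.000248), all on the log2 scale. Its median was 3.88 times the highest other library and passed 5 with DESeq2 size factors and with the total without 7 pancreas miRNAs.

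The epithelial miRNAs made up the next group. All 9 entries of the miR-200 family and miR-141 that could be tested were higher in pancreas than in the mean of the other tissues, against 21.2% of all miRNAs, and the count was the same with library size scaling, with DESeq2 size factors, without plasma and bone marrow and without Pancreas 4. Against single tissues all 9 were higher than in liver, but only 2 of 9 than in duodenum and 1 of 9 than in jejunum, with 0 lower in each. Over all 480 miRNAs 17.1% were higher than in liver, 12.7% than in duodenum and 17.3% than in jejunum. The duodenum and jejunum counts thus do not set the family apart. Their summed level was 26024, 25675, 24349, 24362 and 24663 RPM, the highest of the 16 tissues, with a jejunum median of 8826 next and 6.84 to 25328 RPM over the other libraries. The ranges overlapped, since Jejunum 2 with 25328 RPM lay among the pancreas libraries.

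miR-141 carried most of that sum. It had 18258, 16222, 16612, 15356 and 17342 RPM and was TE at 10.4-fold (exact rank-sum test, Benjamini-Hochberg adjusted p = 0.000243), although Jejunum 2 with 21926 RPM lay above all pancreas libraries. Against jejunum alone the difference was 1.19 ± 0.97 and against duodenum 1.87 ± 0.98, neither past the threshold (Benjamini-Hochberg adjusted p = 0.351 and 0.135 by edgeR), while against liver it was 7.36 ± 1.26. Its opposite arm miR-141-5p had 279, 244, 228, 255 and 238 RPM and lay above all other libraries, the highest of which was Duodenum 1 with 189.6. miR-200a-3p, with 2199.6, 2767, 1999.7, 2864 and 1877 RPM, also lay above all others, at most 1371 in Colon 5. miR-200c had 1317, 1859, 1834, 1885 and 1665 RPM and was TE at 5.07-fold, just inside the limit. It overlapped with jejunum, where Jejunum 4 had 2019 RPM.

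The last 3 TE miRNAs belong to no list. miR-193a-3p, described as a brake on growth signalling, had 385, 365, 371, 324 and 357 RPM, and 1 other library, Plasma 2 with 418, lay above them. It was 10.7-fold higher as a ratio of means, and the fitted difference was 4.28 ± 0.28 (edgeR quasi-likelihood test, Benjamini-Hochberg adjusted p = 4.15e-22). miR-31, an epithelial miRNA, had 1275, 1630.0, 1263, 1337 and 1446 RPM, overlapped with Duodenum 1 at 1366 and was TE at 6.14-fold. miR-135a-5p, a miRNA of the Wnt pathway that targets APC, had 89.4, 113, 101, 84.4 and 141 RPM against at most 178 in Brain 4. It was TE at 8.77-fold, was lost without Pancreas 2 or Pancreas 5, and lay near the limit of 100 RPM.

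Just inside the limit of 5 were miR-200c and miR-31 at 5.07 and 6.14. Just outside it were miR-338, known from oligodendrocytes, at 4.71, miR-29c at 4.27, miR-200b-3p at 4.25, miR-200a at 4.05 and miR-429 at 3.93. miR-338, named after its values were seen, had 799, 710.1, 764, 708 and 795 RPM and was exceeded by sciatic nerve, whose median was 1811.

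**Figure D2:**
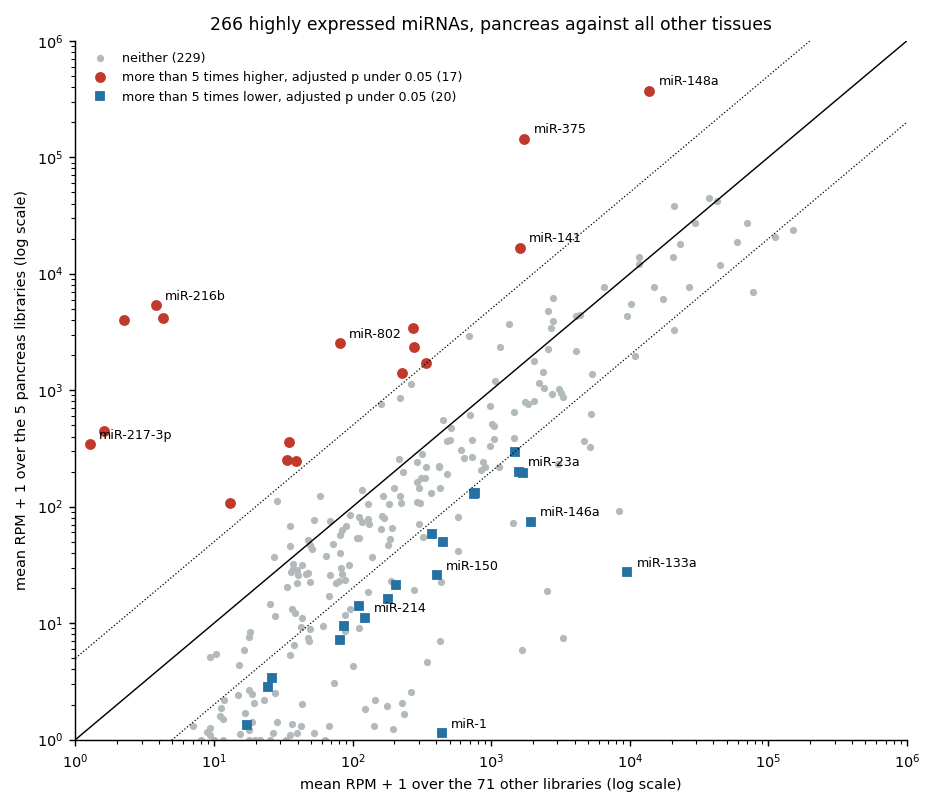
Mean RPM + 1 in pancreas (n = 5) against the mean of the other 71 libraries for 266 highly expressed miRNAs, both axes logarithmic, with the line of equality and dotted lines at 5-fold. The 17 TE miRNAs (red) reach from 5.07-fold to 3216-fold, and the 20 miRNAs called lower (blue) lie under the other dotted line.

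In the other direction 20 of the 266 (7.52%) were more than 5-fold below the mean of the other libraries and passed the same exact rank-sum test, where the test alone found 31 (11.7%) lower. edgeR called 18 of the 20 lower than the mean of the other tissues, and pancreas had the lowest median of the 16 tissues for 12. The number depended on 1 library at a time and on the scaling. It was 20 without Pancreas 4 but 10 without Pancreas 1 or Pancreas 3, 13 without Pancreas 2 and 12 without Pancreas 5. It was 11 with DESeq2 size factors and 8 with the total without 7 pancreas miRNAs. Only 6 of these 8 were among the 20.

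Muscle miRNAs stood lowest. miR-133a, a miRNA of heart and skeletal muscle, had 6.26, 35.3, 8.66, 62.4 and 19.3 RPM in pancreas against a mean of 9611 elsewhere, 364-fold lower (exact rank-sum test, Benjamini-Hochberg adjusted p = 0.00123). The fitted difference was -4.16 ± 0.74 on the log2 scale (Benjamini-Hochberg adjusted p = 3.21e-06 by edgeR). miR-1, the other main muscle miRNA, had 1 read in Pancreas 4 and none in the other 4 libraries against a mean of 441 RPM elsewhere (exact rank-sum test, Benjamini-Hochberg adjusted p = 0.0187). edgeR, which takes each tissue with equal weight, did not call miR-1. miR-133a-5p had no read in any pancreas library, and miR-133b had 0, 2, 0, 6 and 0 reads. The striated muscle list summed to 22.4 to 94.7 RPM, the lowest of the 16 tissues by median, against 36.6 to 116605. The other libraries had a median sum of 259 RPM, while the heart median was 92219. Liver had 36.6 to 159 RPM, which overlapped with pancreas. Against liver miR-133a differed by -1.34 ± 0.73, not past the threshold (Benjamini-Hochberg adjusted p = 0.157 by edgeR). Of the 10 tested entries of the list 0 were higher and 4 lower, or 3 lower with DESeq2 size factors, against 19.2% lower over all 480 miRNAs. Against single tissues 4 were lower than in duodenum and 4 than in jejunum, but 0 than in liver, where 22.9%, 21% and 19% of all miRNAs were.

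Leukocyte miRNAs were lower in pancreas than in the mean of the other tissues. miR-146a, a feedback inhibitor of NF-kB signalling in immune cells, had 26.8, 49.1, 26.4, 224 and 39.99 RPM against a mean of 1933, 26.4-fold lower (exact rank-sum test, Benjamini-Hochberg adjusted p = 0.00381), with Pancreas 4 far above the other 4. miR-150, a lymphocyte miRNA, had 16.99, 27.1, 21.9, 30.9 and 26.7 RPM against 404 elsewhere, and its fitted difference was -2.71 ± 0.50 (Benjamini-Hochberg adjusted p = 6.61e-06 by edgeR). All 5 tested entries of the list were lower, against 19.2% of all 480 miRNAs and 77 of the 235 with more than 3 reads in every tissue, and 3 of 5 when plasma and bone marrow were left out of the reference. The list's median fitted difference was -2.01 against -0.36 over the 235 miRNAs with more than 3 reads in every tissue. The summed level was 446, 448, 517, 839 and 359.9 RPM. Kidney was as low, with a median of 415 RPM against 448 in pancreas, and ileum had the highest median, 24191.

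Markers of fibroblasts and smooth muscle were also low, most clearly outside Pancreas 4. miR-214, a fibroblast miRNA, had 4.02, 8.82, 5.77, 27.4 and 4.44 RPM against a mean of 121, a fitted difference of -3.00 ± 0.52 (Benjamini-Hochberg adjusted p = 1.75e-06 by edgeR). miR-145, which marks contractile smooth muscle, had 169, 104, 198, 311 and 194 RPM against 1689 elsewhere. Its lower call was lost when any 1 of the pancreas libraries was left out. It was also lost with TMM scaling, DESeq2 size factors, the total without 7 pancreas miRNAs and thinned libraries. Without Pancreas 4 the ratio to the other mean was lower, at 0.0985, although the rank-sum test, on 4 libraries, did not call it. Its neighbour miR-143 had 16595, 16056, 17134, 38971 and 14644 RPM and a fitted difference of -1.54 ± 0.42. Of 5 fibroblast entries 4 were lower and of 4 smooth muscle entries 3, or 2 with DESeq2 size factors, against 19.2% over all miRNAs. The summed smooth muscle level was 16819, 16194, 17376, 39365 and 14885 RPM and the summed fibroblast level 792 to 2182, with Pancreas 4 the highest in both.

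miR-23a, miR-23b and miR-24, which are made from 2 paralogous clusters that also hold miR-27, were low in RPM in every pancreas library. miR-23a had 156, 152, 159, 352 and 176 RPM against a mean of 1585 elsewhere, and a fitted difference of -2.53 ± 0.31 (edgeR quasi-likelihood test, Benjamini-Hochberg adjusted p = 1.23e-10). miR-24 had 109.6, 106, 90.3, 235 and 105 RPM against 763, with a difference of -2.17 ± 0.27 (Benjamini-Hochberg adjusted p = 1.76e-10 by edgeR). miR-23b had 238, 238, 257, 417 and 317 RPM and at 0.199 times the other mean lay just inside the limit. By the rank-sum criterion none of the 3 was still called lower with the total without 7 pancreas miRNAs. With DESeq2 size factors only miR-23a was. Of 8 tested entries of these clusters 0 were higher and 5 lower, 4 with DESeq2 size factors and 3 without plasma and bone marrow, against 19.2% lower over all miRNAs. The near-identical miR-23a and miR-23b may share reads, which cannot be resolved from the counts. miR-27b was among the 10 most abundant pancreas miRNAs, with 15806, 15261, 17201, 22900.3 and 18179 RPM.

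Of the remaining miRNAs of this group miR-874 had 3.13, 5.67, 4.54, 10.3 and 7.41 RPM, the miR-106a entry joined with human miR-106a-5p 0.894, 1.26, 2.06, 4.80 and 0, miR-1343 0.447, 3.78, 3.71, 4.12 and 0 and miR-181a-3p 11.6, 8.82, 11.96, 19.9 and 23.7. Their highest tissue medians lay in brain or, for that miR-106a entry, in testis. Another miR-106a entry, joined with rat miR-17-5p, was not called lower by this test. miR-874-5p had 3 reads in all 5 libraries and was not called by edgeR. miR-193b-3p had 7.15, 8.82, 7.42, 76.2 and 1.48 RPM, so the value of Pancreas 4 alone was above the range of the other 4. miR-363, miR-139-5p, miR-769-5p and miR-195 complete the 20, and were 5.99 to 9.22-fold lower. miR-191, chosen after its values were seen, was the only 1 of the 266 (0.376%) for which all 5 pancreas libraries lay below all 71 others in RPM. That separation is one of RPM alone. miR-148a and miR-375 took 38.9% to 56.1% of the pancreas reads. With the total without 7 pancreas miRNAs the pancreas values of miR-191 would pass the lowest other library. miR-191 had 7789, 6864, 6160.4, 9677 and 7594 RPM against 10051 to 59577, a difference of -1.58 ± 0.28 (Benjamini-Hochberg adjusted p = 4.42e-06 by edgeR).

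**Figure D3:**
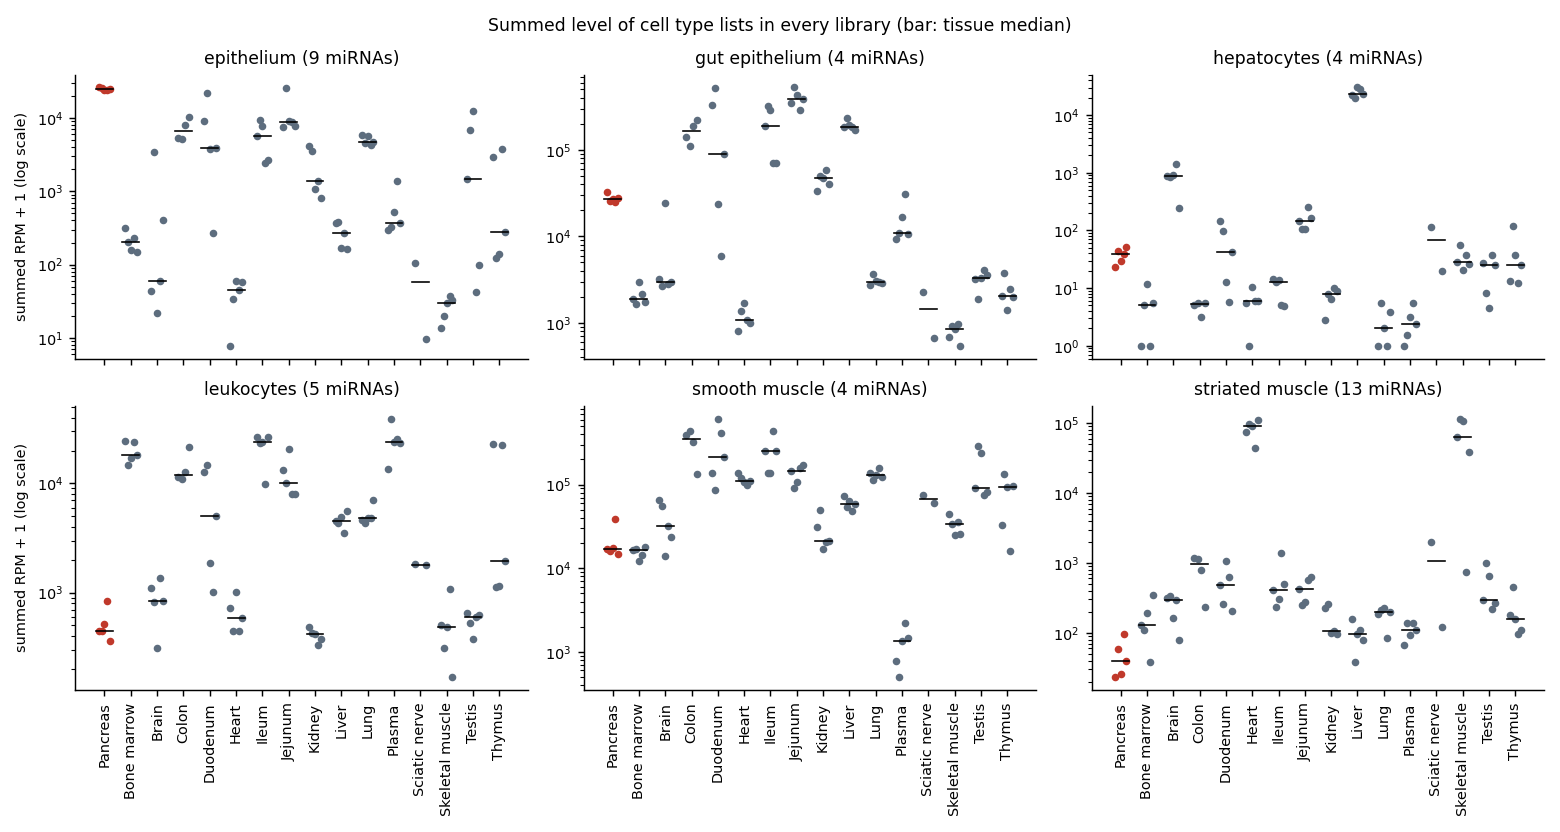
Summed RPM + 1 on a log axis of 6 marker lists in each library (points) by tissue, with the tissue median as a bar. Pancreas has the highest median for the epithelium list and the lowest for striated muscle, while its hepatocyte sum of 22.4 to 50.4 RPM stands far below the liver median of 23288.

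The edgeR fit weighed each of the 15 tissues equally, so that 1 tissue with a very high level did not set the reference. It tested 480 miRNAs and called 102 (21.2%) higher and 92 (19.2%) lower in pancreas, 194 in all (40.4%), of which 37 (7.71%) and 20 (4.17%) were beyond 5-fold. Without Pancreas 4 it called 82 higher and 96 lower. Single libraries of other tissues also moved the number called lower, to 55 without Plasma 3 or Plasma 5, 56 without Colon 3, 57 without Kidney 5 and 59 without Skeletal muscle 2. The split moved with the scaling, from 52.6% of the calls higher to 43.4% with library size only and 61.8% with DESeq2 size factors. Among the 235 miRNAs with more than 3 reads in every tissue 52 were higher and 77 lower.

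The lowest fitted values among highly expressed miRNAs, beside those of muscle, leukocytes and the miR-23a and miR-214 values above, included miR-196b, miR-490 and miR-152. miR-196b, from the HOX clusters, had 0.447, 2.52, 0.825, 0.686 and 1.48 RPM and a difference of -4.00 ± 0.71 (edgeR quasi-likelihood test, Benjamini-Hochberg adjusted p = 3.07e-06), with colon the highest tissue at a median of 558. It was as low in duodenum, 0.621 to 3.15 RPM, and in liver, 0 to 5.41. miR-490 had 3 reads, all in Pancreas 4, and no fold is given. The highest were the acinar cluster, miR-375, miR-148a, miR-802, miR-141 and miR-141-5p described above.

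Several families had members on both sides, where 21.2% of all miRNAs were higher and 19.2% lower. Of 6 tested miR-181 entries 2 were higher and 3 lower. miR-181c, from its own cluster, had 3964, 4521, 4599, 6077 and 4775 RPM and was higher by 1.91 ± 0.23, while miR-181a, the abundant member, had 16267, 16048, 17988, 25963 and 17582 RPM and was lower, at -0.76 ± 0.30 (edgeR quasi-likelihood test, Benjamini-Hochberg adjusted p = 1.65e-10 and 0.0333). Of 14 let-7 entries 3 were higher, let-7f and let-7g among them. The 3 lower ones were let-7b, let-7c and 1 of 2 let-7d entries, which are opposite arms. Under library size scaling and without Pancreas 4, 1 was higher and 3 lower. Members of both families on the same arm differ by few bases, so the split of reads between them is uncertain.

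The miR-29 family, which represses collagen genes, was higher in 5 of 6 entries and lower in 0, where 21.2% of all miRNAs were higher, and in 3 of 6 with library size scaling. miR-29c had 1074, 1147, 1212, 1047 and 1136 RPM and a difference of 2.67 ± 0.24 (edgeR quasi-likelihood test, Benjamini-Hochberg adjusted p = 1.96e-15). miR-29a had 2037, 2508, 2267, 2438 and 2549 RPM and a difference of 1.43 ± 0.21. The family's summed level was 3188 to 3806 RPM, with the highest median of the 16 tissues. The miR-30 family, common in epithelial organs, was higher in 7 of 11 entries against that 21.2%, but in only 3 with library size scaling, where 1 was lower, and in 3 without Pancreas 4. miR-30b had 3362, 3934, 3931, 3169.7 and 4264 RPM and a difference of 2.30 ± 0.20. The sensory cluster of miR-182, miR-183 and miR-96 was higher in 4 of 4 tested entries against the same share, and miR-182 had 4337, 8468, 5115, 7258 and 5938 RPM with a difference of 3.43 ± 0.45 (Benjamini-Hochberg adjusted p = 1.59e-09 by edgeR). The cluster's summed median was 6299 RPM in pancreas but 6678 in sciatic nerve. Of the 4 entries 4 were higher than in liver, 1 than in jejunum and 0 than in duodenum, against 17.1%, 17.3% and 12.7% of all miRNAs.

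The remaining lists had few calls, to be read against 21.2% higher and 19.2% lower over all 480 miRNAs. Gut epithelium had 2 higher and 0 lower of 4 entries tested, led by miR-192 at 1.32 ± 0.33, and hepatocytes 1 higher and 0 lower of 4. Erythroid cells had 1 higher and 1 lower of 4, with miR-144 at 1.24 ± 0.39 and miR-486 at -1.52 ± 0.56, and 3 higher and 0 lower without plasma and bone marrow. Neural cells had 1 higher and 2 lower of 9, or 3 higher and 1 lower with DESeq2 size factors. Myeloid cells had 0 higher and 1 lower of 2, endothelium 0 higher and 0 lower of 2 by edgeR and by DESeq2, HOX miRNAs 0 higher and 3 lower of 7 and miR-34 with miR-449 1 higher and 1 lower of 8. Of the broadly expressed families miR-15, miR-16 and miR-195 had 0 higher and 2 lower of 6, miR-221 and miR-222 0 higher and 1 lower of 3, miR-99, miR-100 and miR-125 0 higher and 2 lower of 9, and the miR-17 clusters 2 higher and 5 lower of 19. Neither endothelial miRNA had an unadjusted p under 0.05 by either tool. Library size scaling gave 0 higher and 6 lower for the miR-17 clusters, 2 higher and 3 lower for the miR-148 family, 0 higher and 2 lower for neural cells 0 higher and 4 lower for HOX miRNAs and 0 higher and 1 lower for erythroid cells. DESeq2 size factors gave 2 higher and 4 lower for the miR-17 clusters, 9 higher and 0 lower for the miR-30 family, 2 higher and 2 lower for miR-181, 4 higher and 2 lower for let-7 0 higher and 2 lower for HOX miRNAs, and 0 higher and 1 lower for miR-15, miR-16 and miR-195 and for miR-99, miR-100 and miR-125. Without Pancreas 4 the miR-17 clusters had 1 higher and 6 lower, the miR-148 family 2 higher and 3 lower gut epithelium 1 higher and 0 lower and neural cells 0 higher and 2 lower. Without plasma and bone marrow the miR-17 clusters had 3 higher and 3 lower, neural cells 3 higher and 1 lower, smooth muscle 0 higher and 4 lower, miR-34 with miR-449 1 higher and 2 lower, miR-15, miR-16 and miR-195 1 higher and 1 lower, and the calls of myeloid cells and of miR-221 and miR-222 were lost. No called member of any list turned its sign with library size scaling, with DESeq2 size factors, without plasma and bone marrow or without Pancreas 4.

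The small intestine adjoins the pancreas and shares its endodermal origin. Against duodenum edgeR called 61 (12.7%) of 480 miRNAs higher and 110 (22.9%) lower in pancreas, 171 in all (35.6%), and 48 and 105 without Pancreas 4. Beyond 5-fold were 26 (5.42%) higher and 59 (12.3%) lower ones. Of 135 miRNAs above 100 RPM in either tissue 26 (19.3%) were higher and 21 (15.6%) lower with no overlap between the libraries. The 5 largest higher ones were the acinar cluster, led by miR-217 at 11.92 ± 0.99 on the log2 scale. The lowest was miR-215, a sister of miR-192 in gut epithelium, with 14.3, 152, 67.2, 129.7 and 91.8 RPM against 424 to 91939 in duodenum and a difference of -8.14 ± 1.03 (edgeR quasi-likelihood test, Benjamini-Hochberg adjusted p = 1.13e-09). The leukocyte miRNA miR-146a was lower, at -5.18 ± 0.62 against 553 to 4156 RPM in duodenum, and the smooth muscle miRNA miR-145 at -4.99 ± 0.64 against 1129 to 11334. miR-133a and miR-152 followed with -4.60 ± 0.82 and -4.57 ± 0.57. The duodenum values spread widely, and a fit of the 2 tissues alone called 37 higher and 57 lower. The share of calls that were higher was 35.7% by edgeR and 48.8% by DESeq2.

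Against jejunum 83 (17.3%) of 480 were higher and 101 (21%) lower, 184 in all (38.3%), and 69 and 110 without Pancreas 4. Beyond 5-fold were 42 (8.75%) higher and 51 (10.6%) lower ones. With no overlap 35 (23.8%) of 147 were higher and 42 (28.6%) lower. The same 5 acinar entries led, with miR-217 at 10.21 ± 0.89. The gut miRNAs were lower, miR-215 at -9.35 ± 1.08 with 43168 to 89467 RPM in jejunum, and miR-194, a partner of miR-192, at -5.39 ± 0.68, with 676, 592, 652, 517 and 677 RPM in pancreas against 23077 to 39122 (edgeR quasi-likelihood test, Benjamini-Hochberg adjusted p = 6.67e-11 and 1.05e-09). miR-146a was lower, at -5.51 ± 0.63 and the leukocyte arm miR-142-3p at -5.30 ± 0.91, with 16.99 to 23.7 RPM against 557 to 1572. miR-18a, of the proliferation cluster miR-17 to miR-92a, was lower, at -5.03 ± 0.71, with 8.89 to 13.4 RPM against 188 to 633.

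Liver is the other large secretory gland of the atlas. Here 82 (17.1%) of 480 were higher and 91 (19%) lower, 173 in all (36%), and 79 and 86 without Pancreas 4, but DESeq2 called only 50 lower, and 68.9% of its calls were higher against 47.4% by edgeR. Beyond 5-fold were 71 (14.8%) higher and 34 (7.08%) lower ones. With no overlap 32 (22.5%) of 142 were higher and 53 (37.3%) lower. miR-216a, miR-217 and miR-216b led with 10.38 ± 1.04, 10.23 ± 0.90 and 10.15 ± 1.06, followed by their minor arms. miR-122, the hepatocyte miRNA, had 1.34, 12.6, 1.65, 1.37 and 7.41 RPM in pancreas against 19138 to 29157 in liver, a difference of -12.17 ± 0.97 (edgeR quasi-likelihood test, Benjamini-Hochberg adjusted p = 4.25e-17). Its arm miR-122-3p had no pancreas read against 752 to 1032 RPM. miR-193b-3p, miR-146a and miR-214 were lower, at -5.97 ± 0.69, -3.87 ± 0.58 and -3.86 ± 0.60. miR-148a, high in both glands, was higher in pancreas by 2.58 ± 0.33 (Benjamini-Hochberg adjusted p = 1.14e-09 by edgeR). miR-192 was lower in pancreas than in all 3 of these tissues, at -2.28 ± 0.54, -3.34 ± 0.56 and -2.66 ± 0.55 for duodenum, jejunum and liver.

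The imprinted DLK1-DIO3 cluster, whose many miRNAs are known from brain and development, was described in these 3 contrasts, which share the pancreas libraries. Its entries summed to 713, 1107, 770.2, 1438 and 861 RPM in pancreas, to 118 to 7498 in duodenum, 120.0 to 496 in jejunum and 62.05 to 181 in liver. Of 52 entries tested 2 were higher and 14 lower in pancreas than in duodenum, 15 higher and 0 lower than in jejunum, and 18 higher and 0 lower than in liver, where over all 480 miRNAs 12.7% were higher and 22.9% lower than in duodenum, 17.3% and 21% than in jejunum, and 17.1% and 19% than in liver. The 14 of 52 lower than in duodenum thus lay near the share over all miRNAs. miR-127, the most abundant member, had 214, 444, 294, 518 and 366 RPM in pancreas, 69.9 to 4299 in duodenum, 76.4 to 335 in jejunum and 21.6 to 81.7 in liver. Against the mean of the 15 tissues 5 of the 52 were higher and 1 lower, smaller shares than the 21.2% and 19.2% of all 480 miRNAs. The counts were 2 and 1 without Pancreas 4 and with library size scaling, 7 and 0 with DESeq2 size factors and 4 and 3 without plasma and bone marrow.

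As whole profiles the pancreas libraries were more like each other than like any other tissue. Spearman's rho over 650 miRNAs was 0.930 to 0.949 between pancreas libraries, and averaged 0.867 with jejunum, 0.859 with ileum and colon, 0.850 with duodenum, 0.847 with kidney, 0.844 with liver and 0.717 with brain. These are descriptions across miRNAs, which are not independent replicates. Pancreas had the highest tissue median for 20 of the 266 highly expressed miRNAs and the lowest untied one for 20, where brain had the highest for 86 and plasma the lowest for 57.

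Among the 119 miRNAs with a pancreas median above 100 RPM the CV over the 5 libraries had a median of 20.4%, and 13.4% without Pancreas 4. The most even was miR-16, a broadly expressed miRNA, with 5149.6, 5498, 5458, 5613 and 5504 RPM and a CV of 3.21%. The most variable was miR-146b with 140.4, 115, 129, 579 and 117 RPM and a CV of 94.0%, and miR-378, a miRNA of oxidative metabolism, had 1901, 2403, 1562, 8443 and 2031 RPM. Both, named after their values were seen, were set apart by Pancreas 4 alone. Of the acinar miRNAs only miR-217 had its highest value there by a wide margin, at 6274 RPM against 3006 to 3799, while miR-216a stayed within 3927 to 4535 RPM in all 5.

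**Figure D4:**
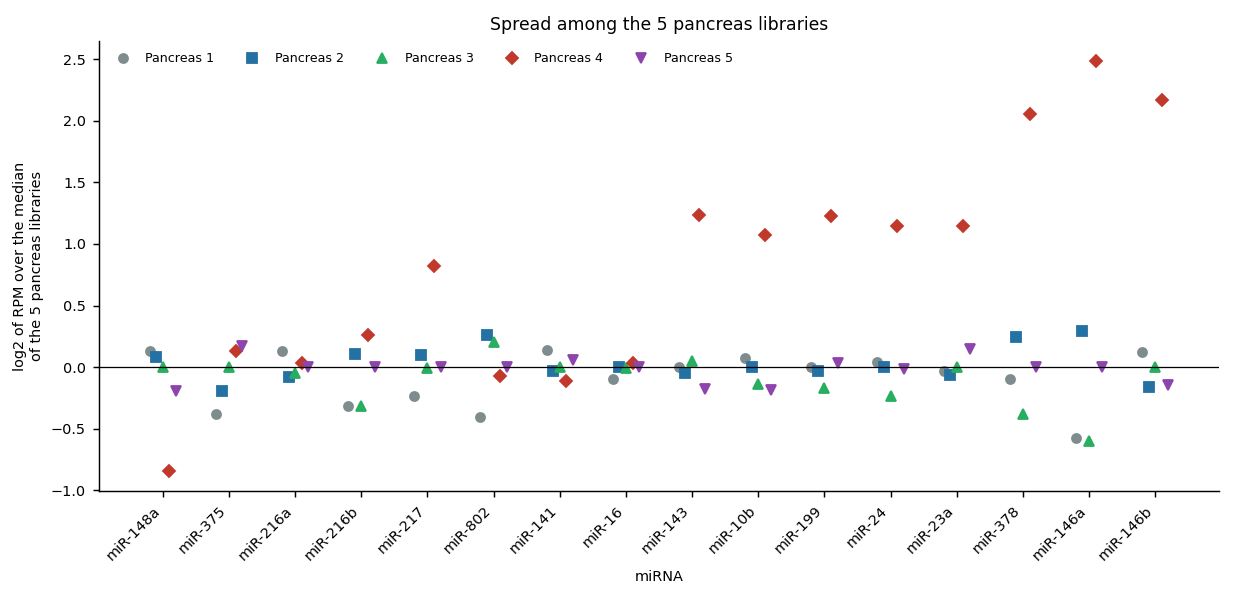
Log2 of RPM over the pancreas median for 16 miRNAs in the 5 pancreas libraries (points, 1 colour per library). Pancreas 4 lies below the others for miR-148a at 226890 RPM and above them for miR-10b at 42083 and miR-143 at 38971.

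The ratio of the 2 arms of 1 hairpin within a library does not depend on the scaling, and it was compared between pancreas and each other tissue. It was taken as log2(3p reads + 1) minus log2(5p reads + 1) for 22 hairpins with at least 20 reads of each arm in all libraries compared, which gave 194 pairs of a hairpin and a tissue. Of these 108 (55.7%) differed by an exact permutation test after Benjamini-Hochberg adjustment over the 194, 45 (23.2%) with more and 63 (32.5%) with less 3p arm in pancreas. The smallest p that 5 against 5 libraries can give is 0.00794, and sciatic nerve with 2 could not go below 0.0476. So many pairs differed that a call is no mark of a particular hairpin, and the hairpins are described by how many tissues lay on one side. Without Pancreas 1 the number was 79.

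miR-151, from the gene of the focal adhesion kinase, had less 3p arm in pancreas than in any of the 15 other tissues. Its ratio was -0.77 ± 0.54 (SD, n = 5), from -1.69 to -0.40, and the other tissues averaged -0.18 in testis to 2.45 in plasma. The differences from 14 tissues passed the exact permutation test, and that from sciatic nerve, with 2 libraries, could not. The closest was testis, at a difference of -0.58, where the ranges overlapped (Benjamini-Hochberg adjusted p = 0.0428, exact permutation test). Pancreas 1 was the lowest of the 5.

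The hairpins of miR-148a, miR-200a and miR-141 had a higher mean ratio in pancreas than in each tissue compared. The counts below are to be read against the 55.7% of all 194 pairs that passed, 23.2% with more and 32.5% with less 3p arm. For miR-148a the ratio was 6.76 ± 0.51 in pancreas and 4.78 to 6.12 as means of 13 other tissues, higher than all 13, of which 8 passed the exact permutation test. For miR-200a it was 4.40 ± 0.14 against 2.83 to 3.88 in 4 tissues, all 4 past the threshold. For miR-141 it was 6.07 ± 0.11 against 3.78 to 5.22 in colon, ileum and jejunum, 2 of 3 past it. miR-361 and miR-30d were higher than all 7 tissues with 5 passing each, and miR-145 than all 11 with 8 passing. On the other side miR-423, whose 3p arm the table counts in 1 entry with miR-3184-5p, was lower in 12 tissues of 15, miR-30a in 10 of 14, miR-181c in 5 of 8 and miR-148b in 2 of 3 past the threshold. The hairpins miR-199a and miR-199b share 1 entry for their 3p arm, and miR-199a was higher than 13 tissues with 7 passing while miR-199b was lower than 9 with 8 passing.

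**Figure D5:**
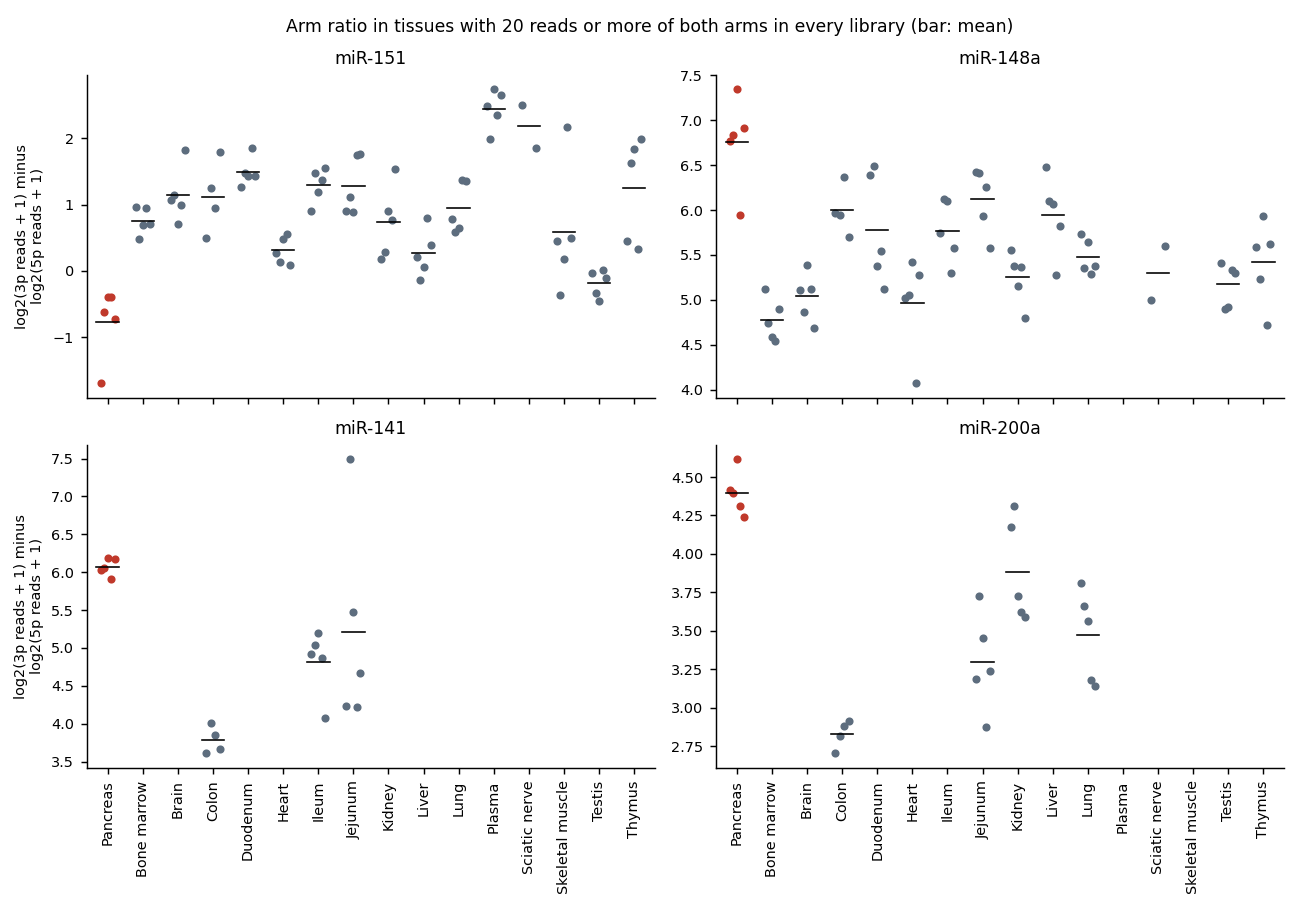
Log2 ratio of 3p to 5p reads in each library (points) by tissue for miR-151, miR-148a, miR-141 and miR-200a, with the tissue mean as a bar. Pancreas has the lowest mean for miR-151, -0.77, and the highest for miR-148a, 6.76.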

How the data were processed

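Small RNA of 16 tissues of untreated dogs was sequenced, and 76 of the 77 labelled libraries had values. The remaining one, from colon, was not analysed here, and 1 name in the table that matched no labelled sample was not used. The deposited read counts were made by the authors, who clipped adaptors, aligned reads with OSA version 4 to the dog genome (CanFam 3.1, per the submitters' processing notes) with no mismatch, left out reads with over 10 locations, and counted those covering 70% or more of a dog, rat or human locus of miRBase 21. Reads of near-identical miRNAs cannot be resolved. A miRNA not listed for a library was taken as 0. The deposited RPM values are counts over the miRNA read total of the library, times 1000000, and recomputed RPM differed from them by at most 2.89e-09 in relative terms, although the counts summed to up to 1.16% more than that total. The authors' column of the highest RPM of each miRNA was not used. Pancreas held 675171 to 2425345 reads a library, and intervals and floors cover counting error only.

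TE and HTE follow the fold and test limits of the study, not its limit on the tissues with detection, and the lower calls mirror TE. The rank-sum p-values were exact, two-sided and adjusted by Benjamini-Hochberg over 650 miRNAs. edgeR 4.0.16 (R 4.3.3) fitted the counts with TMM scaling, filterByExpr and 1 mean for each of 16 tissues, and quasi-likelihood tests compared pancreas with the mean of the other 15, duodenum, jejunum and liver over 480 miRNAs, with a threshold of 0.05. A fitted fold of a miRNA near 0 in one group depends on the prior count and is no bound. The ± of an edgeR difference is a standard error, taken as the difference fitted without prior count over the square root of the F statistic. Where an entry joins several names, the arm was read from all of them. An entry with no arm in its name was taken as the arm opposite to the named one of its hairpin, and arm ratios were compared by exact permutation tests. Entries named for human or rat are given by the number of the miRNA. Tests used Python 3.11.15 with numpy 2.4.6, pandas 2.3.3 and scipy 1.17.1, figures matplotlib 3.10.9, and DESeq2 1.42.0 was an alternative.

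The miRNAs named are those the study lists for pancreas, the 10 most abundant in pancreas, all TE and HTE ones, the 10 smallest ratios among those called lower, the 10 largest changes in each direction against the 15 tissues, the 5 largest in each direction against a single tissue without overlap, and members of 28 lists as examples. Members and lists were chosen with earlier results of these data known. Alternatives were other scalings, filters, references, depths and tools and leaving out each library. Only the filter on more than 3 reads in every tissue was added after seeing the data. The code was run on simulated counts with known changes, where edgeR recovered 53.8% of 2-fold and 79.8% of 5-fold changes. Those counts had less spread than the fitted dispersion of 0.283, so these shares do not carry over to the data.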

Additional observations from a re-analysis of the deposited data

Results flagged for a closer look

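In a group of 5 libraries a value stood apart when its gap to the nearest other, divided by the range of the group, was above 0.71, a limit that chance passes in about 1 group in 20. Of 98 values examined in pancreas 17 passed it, 15 of them through Pancreas 4 and 2 through Pancreas 1.

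In Pancreas 4 these single miRNAs stood above the other 4 libraries. miR-10b reached 42083 RPM against 17563 to 21006, and miR-181a 25963 against 16048 to 17988. The acinar miRNA miR-217 reached 6274 RPM against 3006 to 3799. Among miRNAs that were low in pancreas, miR-146a had 224 RPM against 26.4 to 49.1, miR-23a 352 against 152 to 176, miR-214 27.4 against 4.02 to 8.82, miR-152 15.1 against 5.67 to 7.41 and miR-193b-3p 76.2 against 1.48 to 8.82. miR-490 with 2.06 RPM and miR-1 with 0.686 RPM were at 0 in the other 4, so these values rest on 3 reads and 1 read. Summed lists stood apart likewise, with 39365 RPM for smooth muscle against 14885 to 17376, 2182 for fibroblasts against 792 to 903, 63726 for HOX miRNAs against 26994 to 31740 and 33756 for the miR-181 family against 21388 to 23637, lists that hold miR-10b and miR-181a. The 3p to 5p ratio of miR-199b was 2.63 on the log2 scale in Pancreas 4 against 3.07 to 3.18.

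In Pancreas 1 miR-217-3p had 318 RPM against 345 to 352, and the arm ratio of miR-151 was -1.69 against -0.73 to -0.40. Whether the tissue composition of Pancreas 4 differed was not tested.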

How the results depend on the processing

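No paired analysis was possible because the labels give no number that ties libraries of different tissues to 1 dog. The 17 TE miRNAs became 27 with no expression filter and 26 with a ratio of medians, all 17 among them both times, 19 with TMM scaling, 22 with DESeq2 size factors and 15 to 18 when 1 library was left out, lowest without Pancreas 2. HTE gave 6 to 8 over the scalings and 6 to 7 with 1 library left out. Least stable were the 20 lower calls, which became 11 with DESeq2 size factors and 12 with all libraries thinned to the smallest. They became 8 when the total left out 7 pancreas miRNAs, with 6 of the 20 among them. With 1 library left out they were 10 to 23, 10 without Pancreas 1 or Pancreas 3 and 23 without Testis 2. Against the mean of 15 tissues, leaving out 1 library gave 77 to 127 higher and 55 to 105 lower calls, and a filter on over 3 reads in every tissue, added after seeing the data, gave 53 higher and 79 lower because fewer miRNAs were tested. Against duodenum a fit of those libraries alone gave 94 calls, 37 higher and 57 lower, from fewer libraries and 244 miRNAs, and against liver DESeq2 gave 50 lower calls. For the other shifts the cause was not tested. Leaving out 1 library gave 145 to 190 calls against duodenum, 171 to 181 against jejunum, 160 to 173 against liver and 79 to 113 for arm ratios, lowest without Pancreas 1. Of 17354 values of single miRNAs and settings 1239 were no longer past the threshold and 0 turned direction. The folds of miR-217, miR-216a-3p and miR-217-3p had no finite ratio of medians, since the median of the other libraries was 0, and they were counted as past the limit. The shallowest library limits a count of 0 to 19.0 RPM.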

Other observations

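With no lower limit on expression, 10 further miRNAs passed the fold and the test for pancreas. They were picked out by their values, and their medians stayed at or below 100 RPM in every tissue. miR-551a had 27.3, 40.3, 33.8, 49.4 and 51.8 RPM against a mean of 3.26 elsewhere, a ratio of 12.4, and Kidney 2 with 28.9 RPM was the only library to reach the pancreas range (exact rank-sum test, Benjamini-Hochberg adjusted p = 5.41e-06). miR-582 had 35.3, 51.7, 111, 76.2 and 62.2 RPM against a mean of 10.7, a ratio of 6.28, with Thymus 4 the highest other library at 54.4 (exact rank-sum test, Benjamini-Hochberg adjusted p = 0.000101). miR-96 of the sensory cluster had 20.6 to 29.5 RPM, with a ratio of 5.39, and Testis 3 at 48.3 lay above all 5 pancreas libraries.

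The other 7 were mostly opposite arms of miRNAs described above or of their relatives. miR-31-3p had 14.8, 20.2, 19.4, 13.04 and 11.8 RPM, with Duodenum 1 above them at 38.4, and miR-135a-3p had 6.18 to 10.4 RPM, with Testis 3 above them at 22.2. miR-153-5p and miR-7a-2-3p, from hairpins of endocrine and neural miRNAs, had 1.26 to 8.89 and 2.68 to 10.98 RPM and were highest in Brain 3 and Brain 1. miR-375-5p, miR-182-3p and miR-1277-3p had at most 3 reads in any pancreas library, which the floor of 3 reads does not separate from 0.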
